A study of Mus musculus with 6 samples.

Results

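The genes described here belong to 3 vasoactive peptide systems, those of angiotensin, bradykinin and endothelin, with the receptor for aldosterone beside them. They were chosen by name as every probe set (a group of short probes for 1 transcript) whose only annotated symbol was Agt, Ace, Agtr1a, Agtrap, Bdkrb2, Nr3c2, Edn1, Ednra or Ednrb. The table held 13 such probe sets among 45037 that are not controls, and they stood for 8 of the 18193 genes with a symbol of their own. Ednra, the endothelin A receptor, had no probe set under its name in the annotation used here and was not analysed here. RNA of mouse hearts was measured on Affymetrix arrays in 3 groups of 2 arrays. The first group was apoE-deficient mice on a B6 background given rosiglitazone (30 mg/kg daily, begun at an age of 6 months and kept up for 2 months), whose hearts the labels call failing. The second was untreated apoE-deficient mice on the same background, and the third was untreated wild-type B6 mice. All mice were 8 months old and ate a chow with 7% fat and 0.15% cholesterol. ApoE is a protein of lipoprotein particles, and rosiglitazone, used against diabetes, is an agonist of PPAR gamma. In the treated group the drug and the failing state came together, so drug and failure cannot be told apart.

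Angiotensinogen, the product of Agt, is cut by renin to angiotensin I, which the angiotensin-converting enzyme Ace turns into angiotensin II. Angiotensin II narrows vessels and raises aldosterone through the type 1 receptor, in mice chiefly the product of Agtr1a, and the protein Agtrap binds that receptor and promotes its removal from the cell surface. Ace also breaks down bradykinin, a peptide that widens vessels through the receptor Bdkrb2. Endothelin 1, made from Edn1 by endothelial cells, constricts vessels through the A receptor, while the B receptor Ednrb on endothelium releases nitric oxide and clears the peptide. Nr3c2 is the mineralocorticoid receptor, a nuclear receptor that binds aldosterone.

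Ednrb rose in treated hearts and was the member that differed most there. Its brightest probe set had 3.70 times the level of untreated apoE-deficient hearts and 3.89 times the level of B6 hearts (n = 2 arrays per group). Agt was lower in untreated apoE-deficient than in B6 hearts, 1 of 2 Ace probe sets was higher there, and Agtr1a was lower in treated than in B6 hearts. Edn1, Agtrap and Nr3c2 passed the test in no comparison, and Bdkrb2 was too dim to be tested. Levels below are signals after quantile normalization, in the linear units of the scanner software. Differences are on the scale log2(signal + 11.1), given ± SE from a limma fit over all 6 arrays, with Benjamini-Hochberg adjusted p-values over 27022 tested probe sets and a threshold of 0.05. The added 11.1 understates the change of dim genes. The labels do not say whether both arrays of a group hold different animals or whether animals were pooled, and the p-values therefore cover array-to-array spread only, possibly technical.

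**Figure D1:**
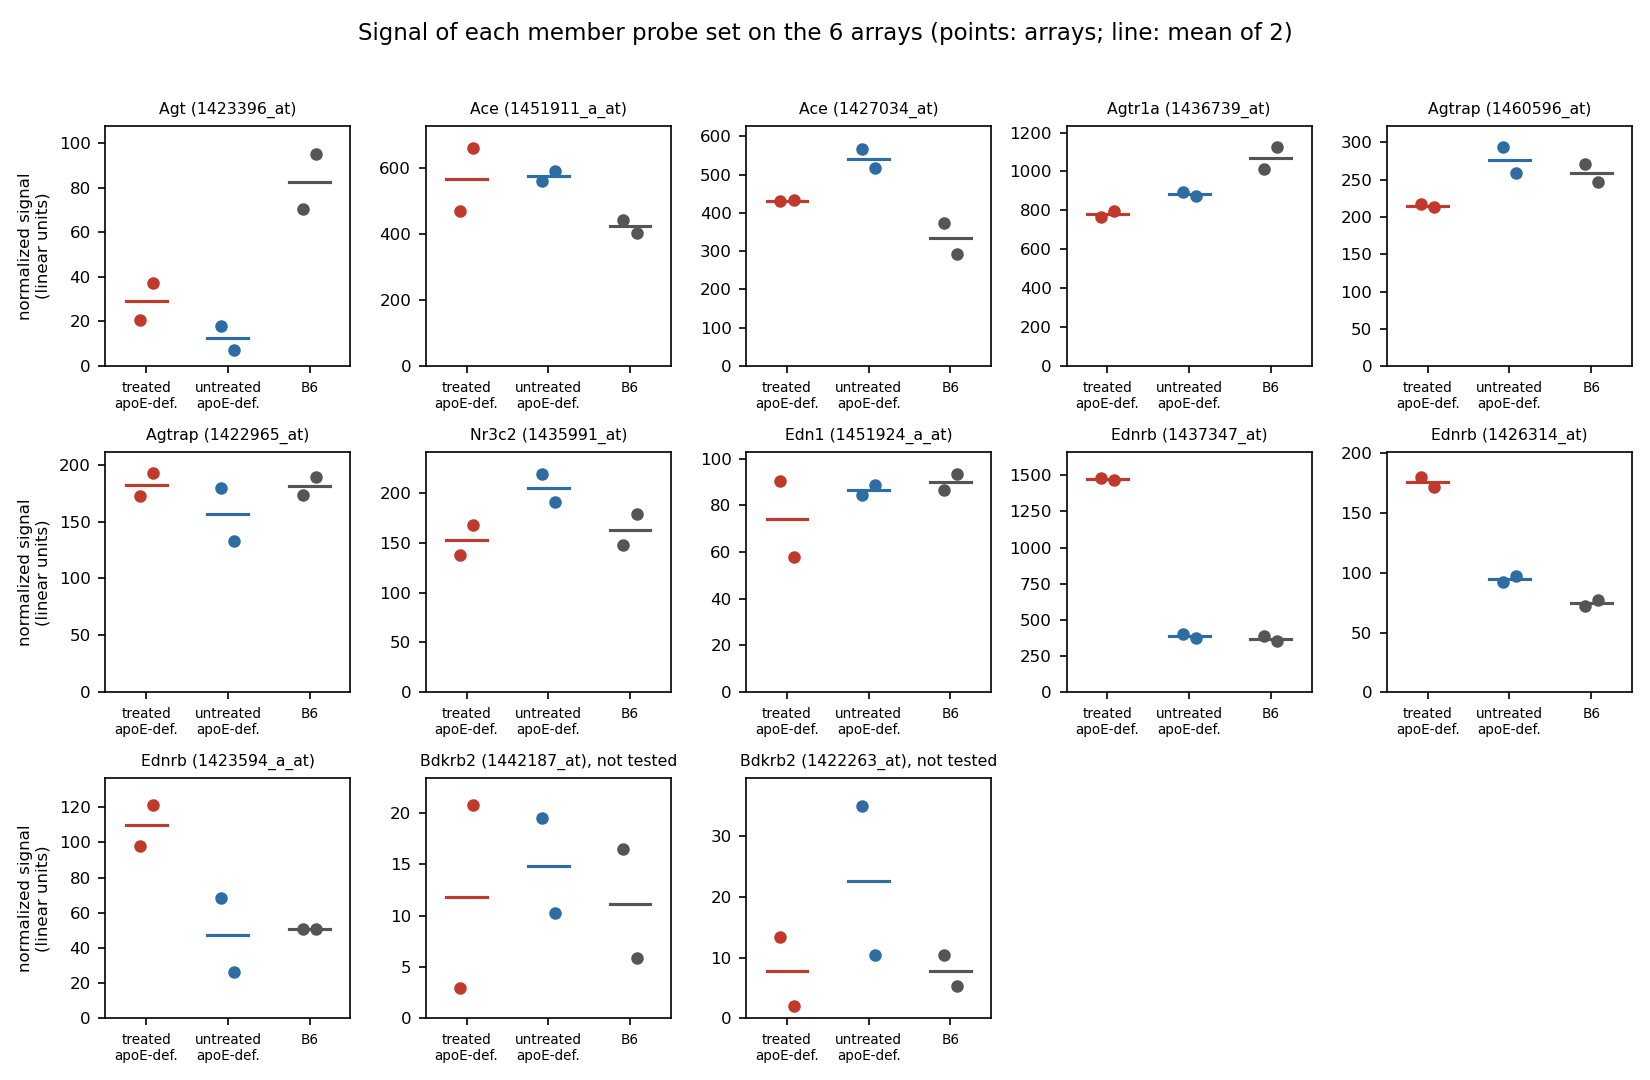
Normalized signal (linear units, each axis from 0) of the 13 member probe sets on the 6 arrays, by group. Points are arrays and lines are means of 2 arrays. The treated arrays stand apart from the other 4 in each Ednrb panel (1480.0 and 1466 against 353 to 403 in the brightest), the B6 arrays lie highest for Agt and Agtr1a, and the Bdkrb2 arrays scatter at low signal.

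The arrays differed in brightness before normalization, and in the order of the groups. The 2%-trimmed mean of the deposited signals was 341 and 263 on treated arrays, 126 and 130 on untreated apoE-deficient arrays, and 175 and 149 on B6 arrays, so each result was recomputed under other scalings. Apoe itself had signals of 62.2 and 65.2 on treated arrays, 26.6 and 67.4 on untreated apoE-deficient arrays, and 3834 and 3698 on B6 arrays, which follows the genotype labels. Markers of heart muscle cells were bright everywhere, with summed signals of 112000 and 115500 in treated, 116200 and 117400 in untreated apoE-deficient, and 123800 and 123000 in B6 hearts. Of these 8 markers 3 rose and 4 fell in treated against untreated apoE-deficient hearts, with log2 differences from -0.32 (Myl2) to 0.49 (Ttn). In treated against B6 hearts 0 rose and 3 fell. Markers of airway and lung and of fat were brighter in treated hearts, as given with Ednrb below.

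Of the endothelin genes, the ligand Edn1 showed signals of 90.3 and 58.0 in treated, 84.5 and 88.5 in untreated apoE-deficient, and 86.7 and 93.3 in B6 hearts. One treated array lay below all others while the second lay among them. The difference of -0.22 ± 0.23 between treated and untreated apoE-deficient hearts did not pass (adjusted p = 0.562). Nor did the difference of -0.05 ± 0.23 between untreated apoE-deficient and B6 hearts (adjusted p = 0.925) or that of -0.27 ± 0.23 between treated and B6 hearts (adjusted p = 0.527). With these errors, even a change of Edn1 as large as the spread between the 2 treated arrays could have been missed.

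Ednrb was measured by 3 probe sets. The first, 1437347_at, gave 1480.0 and 1466 in treated, 403 and 377 in untreated apoE-deficient, and 387 and 353 in B6 hearts. The treated arrays lay far above the others, and the untreated apoE-deficient arrays overlapped the B6 arrays. It was higher in treated than in untreated apoE-deficient hearts by 1.89 ± 0.08 (adjusted p = 1.42e-06), rank 136 of the 27022 tested probe sets by size of difference. Against B6 hearts the treated difference was 1.96 ± 0.08 (adjusted p = 1.31e-06), rank 113. Untreated apoE-deficient and B6 hearts differed by 0.07 ± 0.08, which did not pass (adjusted p = 0.632). The 2 treated comparisons share the treated arrays and are not independent.

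The other probe sets of Ednrb moved in the same direction by smaller amounts. The second, 1426314_at, gave 181 and 171 in treated, 91.9 and 97.6 in untreated apoE-deficient, and 72.2 and 77.6 in B6 hearts, with no overlap between any 2 groups. Its difference was 0.82 ± 0.16 for treated against untreated apoE-deficient hearts (adjusted p = 0.00802) and 1.12 ± 0.16 for treated against B6 hearts (adjusted p = 0.00200). The third, 1423594_a_at, gave 98.0 and 121 in treated, 68.1 and 26.2 in untreated apoE-deficient, and 51.0 and 50.8 in B6 hearts. The untreated apoE-deficient arrays lay on either side of the B6 arrays, and both treated arrays lay above all 4. This probe set passed against untreated apoE-deficient hearts (1.15 ± 0.34, adjusted p = 0.0459) and not against B6 hearts (0.96 ± 0.34, adjusted p = 0.105). Why the 3 probe sets differ in size was not tested. The brightest one passed in both treated comparisons under each of the 17 alternatives. The second lost its call against untreated apoE-deficient hearts without treated replicate 1 (0.78, adjusted p = 0.0833) or treated replicate 2 (0.85, adjusted p = 0.0570). The third lost its call there without treated replicate 1 (1.23), treated replicate 2 (0.99), untreated apoE-deficient replicate 2 (0.61), B6 replicate 1 (1.15) or B6 replicate 2 (1.16), and passed against B6 hearts without untreated apoE-deficient replicate 1 (0.97) or replicate 2 (0.97). It lost its call against untreated apoE-deficient hearts also with a pseudocount of 1 (adjusted p = 0.0558), without the filter on dim probe sets (adjusted p = 0.0900) and without the intensity trend (adjusted p = 0.137). Against B6 hearts it passed also with array medians centred before the pseudocount (adjusted p = 0.0485) or after it (adjusted p = 0.0158) and with spike-in scaling (adjusted p = 0.0107).

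Several markers of other tissues and heart regions also differed between treated and untreated apoE-deficient hearts. All 5 atrial markers rose in treated against untreated apoE-deficient hearts, among them the calcium pump regulator Sln (2.17 ± 0.06) and Myl4 (1.65 ± 0.04) and Myl7 (1.51 ± 0.03), light chains of myosin in atria. Their summed signal was 44280 and 44400 in treated, 18480 and 18340 in untreated apoE-deficient, and 31880 and 32070 in B6 hearts. Of the 6 tested airway and lung markers 4 rose in treated against untreated apoE-deficient hearts, and the summed signal of 9 such genes was 14730 and 15580 in treated, 180.0 and 154 in untreated apoE-deficient, and 131 and 146 in B6 hearts. Scgb1a1, a secretory protein of the airway, rose by 7.55 ± 0.36 there. The others that rose were Bpifa1 (8.65 ± 0.25), Scgb3a2 (6.67 ± 0.42) and Cyp2f2 (5.88 ± 0.26). The surfactant genes Sftpc (0.63 ± 0.33) and Sftpb (0.49 ± 0.49) did not pass. Sftpa1, Sftpd and Ager were too dim to be tested. The filter used the mean over all 6 arrays, and the 4 genes that rose exceeded its limit only through the treated arrays. The count of 4 of 6 therefore depends in part on the filter. Of 5 tested white adipocyte markers 4 rose, with summed signals of 6 genes at 27350 and 26560 in treated, 8419 and 8220 in untreated apoE-deficient, and 9739 and 9065 in B6 hearts. Of 6 brown adipocyte markers 4 rose, Ucp1 (8.69 ± 0.39), Otop1 (3.803 ± 0.42), Elovl3 (2.89 ± 0.30) and Cidea (2.06 ± 0.05). Cox7a1 (0.01 ± 0.03) and Cox8b (-0.07 ± 0.03) did not pass. Ucp1 and Otop1 also exceeded the limit of the filter only through the treated arrays. The sums were 38130 and 37280 in treated, 28260 and 27870 in untreated apoE-deficient, and 27420 and 26910 in B6 hearts. Cox7a1 and Cox8b made up most of each sum, so the sums understate the rise of the other 4. Ucp1 had 6196 and 6243 in treated and 3.15 and 4.81 in untreated apoE-deficient hearts. Of 10 endothelial markers 4 rose and 2 fell, with sums of 8166 and 8391 in treated, 7671 and 7517 in untreated apoE-deficient, and 7542 and 7792 in B6 hearts. Within that list the vascular growth factor receptor Kdr rose by 0.91 ± 0.06 and the related receptor Flt1 fell by 0.88 ± 0.10 on the log2 scale. The part of these tissues and regions in the Ednrb signal was not tested, and in whole-tissue RNA a change in the number of cells of a type cannot be told apart from a change in RNA per cell.

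Among the angiotensin genes, the substrate Agt gave signals of 20.9 and 37.4 in treated, 18.1 and 7.39 in untreated apoE-deficient, and 70.3 and 95.2 in B6 hearts. No array of either apoE-deficient group reached the B6 arrays. Agt fell in untreated apoE-deficient against B6 hearts by 2.00 ± 0.38 on the log2 scale (adjusted p = 0.0178). The filter on dim probe sets took the mean log2 level over all 6 arrays, 5.46 for Agt, against a limit of 4.99. The group means of Agt were 4.54 in untreated apoE-deficient, 5.30 in treated and 6.54 in B6 hearts. Agt thus exceeded the limit mainly through the B6 arrays. Its call for untreated apoE-deficient against B6 hearts was kept without the filter. Treated hearts lay below B6 hearts by a difference of -1.24 ± 0.38, which did not pass (adjusted p = 0.0629). The difference between treated and untreated apoE-deficient hearts, 0.76 ± 0.38, did not pass either (adjusted p = 0.208), although both treated arrays were the higher ones. Agt was a dim probe set, near the middle of all probe sets by mean signal, and its call against B6 hearts was lost without untreated apoE-deficient replicate 2 (-1.72, adjusted p = 0.0583), B6 replicate 1 (-2.21, adjusted p = 0.0774) or B6 replicate 2 (-1.84, adjusted p = 0.127). The treated against B6 difference passed without untreated apoE-deficient replicate 1 (-1.27) or replicate 2 (-1.27). With a pseudocount of 50 (-0.75, adjusted p = 0.0289) or medians centred after the pseudocount (-1.25, adjusted p = 0.0367) the treated against B6 difference passed as well in limma. The call for untreated apoE-deficient against B6 hearts was also lost without the intensity trend in the variance model (adjusted p = 0.104). In untreated apoE-deficient against B6 hearts 4 of 5 atrial markers fell as well, with Sln at -1.33 ± 0.06, Myl7 at -0.998 ± 0.03 and Myl4 at -0.98 ± 0.04. In the same comparison 3 of 5 tested white adipocyte markers fell, Cidec (-1.002 ± 0.18), Adipoq (-0.86 ± 0.10) and Car3 (-0.83 ± 0.06). The other 2, Retn (1.07 ± 0.39) and Fabp4 (-0.11 ± 0.05), did not pass. In treated against B6 hearts, where Agt gave -1.24, 4 of 5 atrial markers and 5 of 5 tested white adipocyte markers rose. Agt is also made by fat cells. The part of atrial tissue and fat in the Agt signal was not tested.

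Ace was measured by 2 probe sets. The probe set 1427034_at gave 430.0 and 434 in treated, 566 and 517 in untreated apoE-deficient, and 374 and 293 in B6 hearts, an order with no overlap between groups. It was higher in untreated apoE-deficient than in B6 hearts by 0.69 ± 0.12 (adjusted p = 0.0113). Its differences of -0.32 ± 0.12 between treated and untreated apoE-deficient hearts (adjusted p = 0.0965) and of 0.37 ± 0.12 between treated and B6 hearts (adjusted p = 0.0696) did not pass. With the replicate number as a block the treated against B6 difference passed (adjusted p = 0.0451). The probe set 1451911_a_at gave 470.2 and 660 in treated, 561 and 590 in untreated apoE-deficient, and 443 and 404 in B6 hearts. Its treated arrays spread wider than the gap between the groups, and it passed in no comparison (0.43 ± 0.14 for untreated apoE-deficient against B6 hearts, adjusted p = 0.103). Both probe sets thus stood higher in each apoE-deficient group than in B6 hearts, with 1 of these 4 differences past the threshold. Single arrays decided several of these calls. The call of 1427034_at for untreated apoE-deficient against B6 hearts was lost without the intensity trend (adjusted p = 0.136), and without untreated apoE-deficient replicate 1 (0.62) or B6 replicate 2 (0.52). It passed for treated against untreated apoE-deficient hearts without B6 replicate 1 (-0.32) or B6 replicate 2 (-0.32), and for treated against B6 hearts without B6 replicate 1 (0.55). The other probe set passed for untreated apoE-deficient against B6 hearts without treated replicate 1 (0.44) or treated replicate 2 (0.44), and for treated against B6 hearts without treated replicate 1 (0.63).

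The type 1 receptor gene Agtr1a gave 766 and 799 in treated, 896 and 873 in untreated apoE-deficient, and 1015 and 1123 in B6 hearts. The groups did not overlap and lay in the order B6, untreated apoE-deficient, treated from high to low, with neighbours in this order not past the threshold. Treated hearts were lower than B6 hearts by a log2 difference of -0.44 ± 0.07 (adjusted p = 0.00307). The differences of -0.17 ± 0.07 between treated and untreated apoE-deficient hearts (adjusted p = 0.121) and of -0.27 ± 0.07 between untreated apoE-deficient and B6 hearts (adjusted p = 0.0551) did not pass. With spike-in scaling the treated against B6 difference shrank to -0.12 and lost its call (adjusted p = 0.242), and it also lost it with medians centred after the pseudocount (-0.26, adjusted p = 0.0724) and without the intensity trend (adjusted p = 0.0920). With array medians centred the difference between untreated apoE-deficient and B6 hearts passed (-0.34). Of the cells that carry this receptor, smooth muscle and pericyte markers summed to 12900 and 13470 in treated, 10260 and 10510 in untreated apoE-deficient, and 11300 and 11660 in B6 hearts. Acta2, smooth muscle actin, was higher in treated than in B6 hearts by 0.64 ± 0.07, and of the 10 markers 3 rose and 2 fell in that comparison, the fallers being the potassium channel subunits Kcnj8 (-0.73 ± 0.09) and Abcc9 (-0.40 ± 0.04). In treated against untreated apoE-deficient hearts 6 rose and 3 fell, Kcnj8 (-0.66 ± 0.09), Notch3 (-0.31 ± 0.08) and Abcc9 (-0.29 ± 0.04). Fibroblast markers summed to 20910 and 20900 in treated, 17600 and 17550 in untreated apoE-deficient, and 19090 and 19490 in B6 hearts. Their part in the Agtr1a signal was not tested. Whether this probe set also reports the closely similar Agtr1b was not tested. The Agtr1b probe set was too dim to be tested.

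Agtrap, the partner of that receptor, had 2 probe sets that did not move together. The brighter one gave 217 and 213 in treated, 294 and 259 in untreated apoE-deficient, and 270.3 and 247 in B6 hearts, with the treated arrays the lowest. Its difference of -0.35 ± 0.12 between treated and untreated apoE-deficient hearts did not pass (adjusted p = 0.0672). The dimmer one gave 172 and 192 in treated, 179 and 133 in untreated apoE-deficient, and 173 and 189 in B6 hearts, with all groups overlapping. Its difference in the same comparison was 0.22 ± 0.16 (adjusted p = 0.401), and it passed as higher with spike-in scaling (0.51, adjusted p = 0.0388).

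The bradykinin receptor gene Bdkrb2 was represented by 2 dim probe sets, at the 25.6th and 23.9th percentile of mean signal, below the 40th percentile set as the limit for testing. One gave 2.97 and 20.7 in treated, 19.4 and 10.2 in untreated apoE-deficient, and 16.5 and 5.84 in B6 hearts. The second gave 13.4 and 1.99 in treated, 34.9 and 10.4 in untreated apoE-deficient, and 10.4 and 5.31 in B6 hearts. Arrays of the same group differed as much as arrays of different groups, and no change of Bdkrb2 could be measured at this signal.

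The mineralocorticoid receptor gene Nr3c2 gave 137 and 169 in treated, 219 and 191 in untreated apoE-deficient, and 148 and 179 in B6 hearts. The untreated apoE-deficient arrays were the highest, and the treated and B6 arrays overlapped. None of its 3 differences passed in limma, at -0.40 ± 0.16 for treated against untreated apoE-deficient hearts (adjusted p = 0.117), 0.31 ± 0.16 for untreated apoE-deficient against B6 hearts (adjusted p = 0.291) and -0.09 ± 0.16 for treated against B6 hearts (adjusted p = 0.793).

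**Figure D2:**
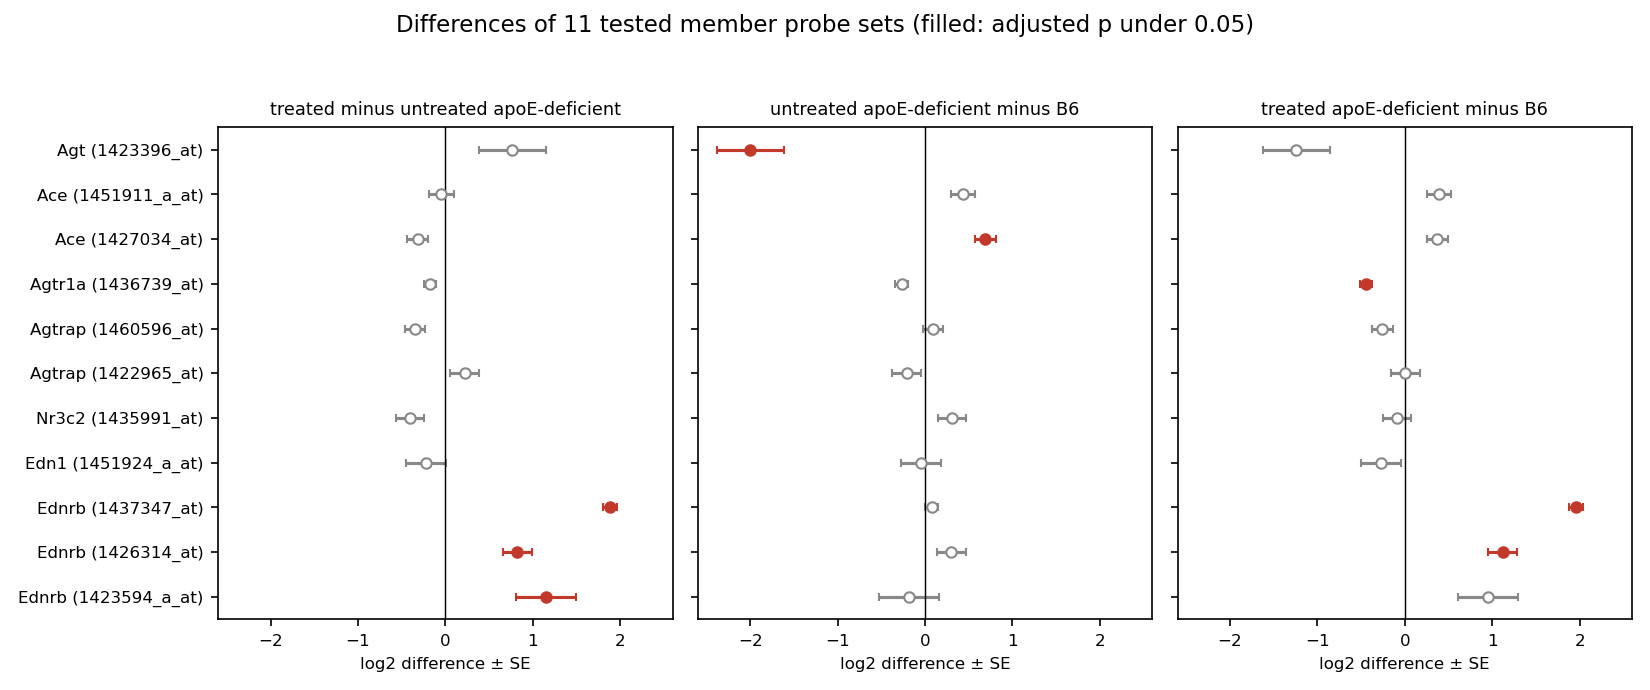
Log2 difference (horizontal axis) ± SE of the 11 tested member probe sets in the 3 comparisons. Filled red points passed at an adjusted p under 0.05: the 3 Ednrb probe sets on the left, Agt (-2.00) and 1 Ace probe set (0.69) in the middle, and 2 Ednrb probe sets and Agtr1a (-0.44) on the right.

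Of the 13 member probe sets, 11 were tested. Between treated and untreated apoE-deficient hearts 3 of the 11 passed as higher, all of Ednrb, and 0 as lower in limma, with 7 at an unadjusted p under 0.05. The share of all tested probe sets at an unadjusted p under 0.05 was not computed. Such counts, here and below, therefore do not set members or lists apart from other genes. Of all tested probe sets 19.8% passed in this comparison, made up of 10.0% higher and 9.81% lower. Between untreated apoE-deficient and B6 hearts 1 passed as higher (Ace) and 1 as lower (Agt), against 7.06% of all tested probe sets (3.17% higher and 3.90% lower). Between treated and B6 hearts 2 passed as higher (Ednrb) and 1 as lower (Agtr1a), against 15.0% of all (7.46% higher and 7.58% lower). With 11 probe sets from 7 genes these shares do not set the members as a whole apart from other probe sets. Groups did not overlap, upward and downward, for 4 and 4 of the 11 in the first comparison (28.6% and 31.4% of all tested probe sets), for 4 and 2 in the second (24.3% and 25.9%) and for 5 and 3 in the third (26.4% and 31.1%). The median difference of the 11 was -0.05, 0.07 and 0.01 in the 3 comparisons in turn, beside -0.02, -0.01 and -0.02 over all tested probe sets.

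**Figure D3:**
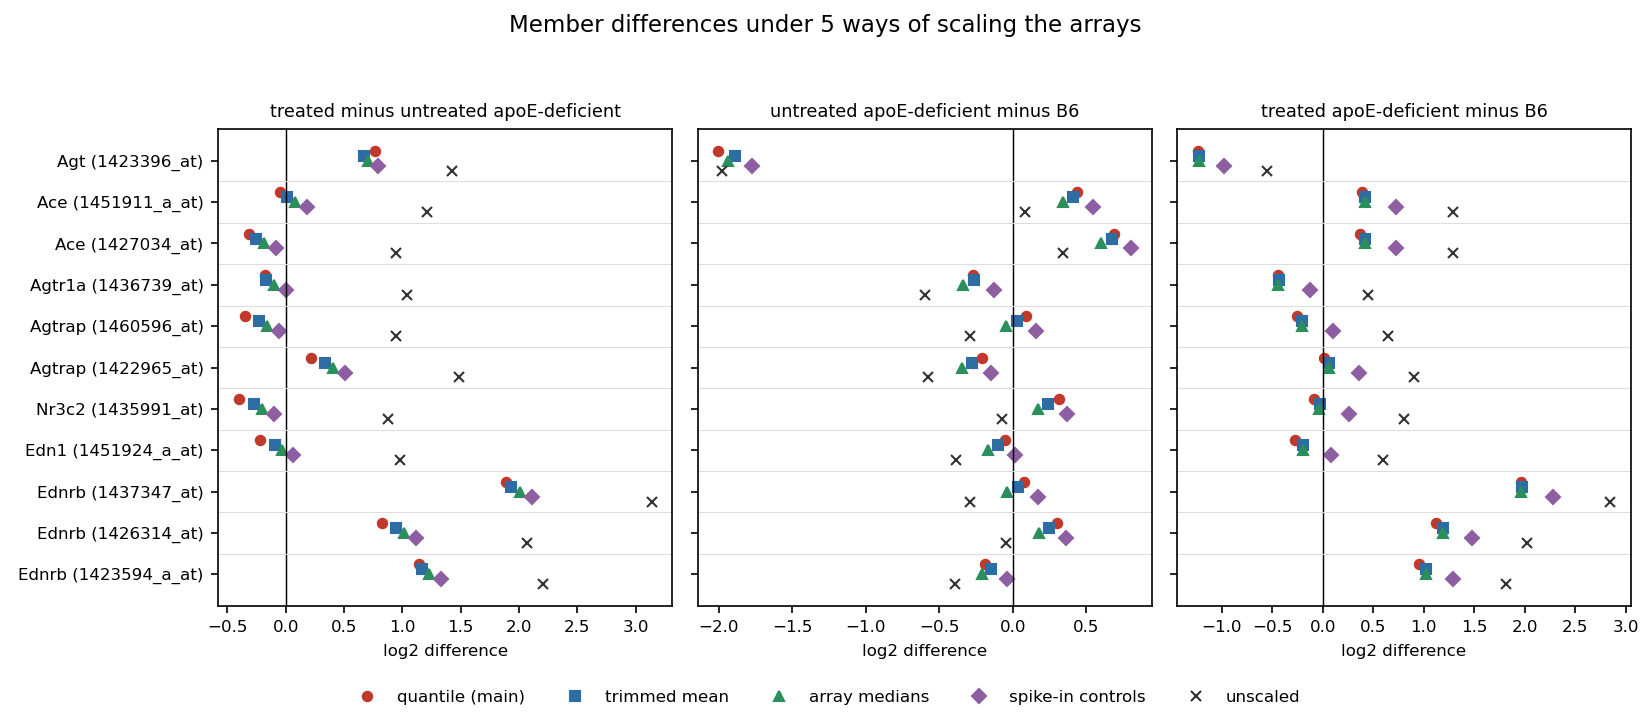
Log2 differences (horizontal axis) of the 11 tested member probe sets in the 3 comparisons, each under 5 ways of scaling the arrays, marked by symbol. The Ednrb points in the left and right panels and the Agt points in the middle panel keep their side of 0 in each of the 5 settings, while Ace (left panel), Edn1, Nr3c2, Agtrap, Agtr1a and, in the middle panel, Ednrb cross 0 in some.

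The scaling of the arrays mattered for the smaller differences. Spike-in scaling moved the median of all tested probe sets to 0.18 for treated against untreated apoE-deficient hearts, 0.11 for untreated apoE-deficient against B6 hearts and 0.28 for treated against B6 hearts. Centring array medians after the pseudocount, the version of that setting computed first, moved it to 0.24, -0.13 and 0.11 in that order. Ednrb probe set 1437347_at gave 1.79 to 2.25 against untreated apoE-deficient hearts and 1.86 to 2.28 against B6 hearts over the 16 alternatives that scale the arrays. Agt ranged from -2.71 to -1.08 for untreated apoE-deficient against B6 hearts and passed in 12 of these 16. The Ace probe set 1427034_at ranged from 0.52 to 0.86 in that comparison and passed in 13 of 16. Spike-in scaling brought Ace to 0.72 and 0.73 for treated against B6 hearts, and both probe sets then passed (adjusted p = 0.00179 and 0.00404).

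The 250 bases before the transcription start in the RefSeq table of GRCm38.p6 are shown for Ednrb, Agt and Ace, which had a probe set that passed and an entry in that table, so that the starts of a gene raised in treated hearts and of 2 genes that differed between untreated apoE-deficient and B6 hearts can be read side by side. Promoter entries were matched for 8 of the 9 genes, Agtr1a being the one without. Capitals mark matches on either strand to the TATA box letters TATAAA, the GC box letters GGGCGG, the nuclear receptor half-site AGGTCA, its direct repeat with 1 base between, AGGTCANAGGTCA, and the steroid receptor half-site AGAACA. The half-site letters are contained in the direct repeat.
Ednrb (chr14:103843702-103843951, minus strand): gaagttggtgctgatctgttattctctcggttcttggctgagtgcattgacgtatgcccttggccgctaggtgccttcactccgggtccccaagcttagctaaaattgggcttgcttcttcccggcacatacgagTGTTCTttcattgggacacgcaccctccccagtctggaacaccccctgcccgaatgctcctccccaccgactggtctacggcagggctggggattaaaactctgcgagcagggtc
Agt (chr8:124569707-124569956, minus strand): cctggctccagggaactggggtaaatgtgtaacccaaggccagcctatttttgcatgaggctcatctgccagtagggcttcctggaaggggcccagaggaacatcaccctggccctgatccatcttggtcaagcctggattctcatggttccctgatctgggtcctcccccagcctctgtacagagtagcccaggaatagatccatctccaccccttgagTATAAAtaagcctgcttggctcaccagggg
Ace, the first of 2 windows in the table (chr11:105967698-105967947, plus strand): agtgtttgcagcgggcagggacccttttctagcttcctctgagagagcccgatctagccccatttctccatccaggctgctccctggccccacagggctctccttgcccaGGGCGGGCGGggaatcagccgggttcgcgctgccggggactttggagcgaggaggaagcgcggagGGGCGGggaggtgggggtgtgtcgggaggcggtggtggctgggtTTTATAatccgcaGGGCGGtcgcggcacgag
Ednrb held 1 match, to the steroid receptor half-site at -115, a motif found in 16.1% of 32851 windows of the same length. Agt held a TATA box match at -30, in the direction of transcription. Ace held one at -31 on the opposite strand, printed as TTTATA. Of all windows 12.4% held a match on either strand at any position. Ace also held 4 GC box matches, 2 of them overlapping, a motif in 32.7% of windows. The nuclear receptor half-site (14.0% of windows) and its direct repeat (0.0335%) were not among the letters of these 3 windows. A second Ace window in the table, not shown, held the nuclear receptor half-site at -50 and neither a TATA box nor a GC box match. A match is a description of the letters and shows no binding.

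Around the members, other genes of the same systems were read from fixed lists, each gene at its brightest probe set. Of 11 tested further angiotensin genes 1 rose and 1 fell in treated against untreated apoE-deficient hearts, where 23.7% of all 13236 tested genes passed. Between untreated apoE-deficient and B6 hearts 8.51% of them passed, and between treated and B6 hearts 18.7%. Mme, the peptidase neprilysin that degrades natriuretic peptides, bradykinin and endothelin, had 139 and 136 in treated, 52.5 and 43.0 in untreated apoE-deficient, and 76.9 and 46.4 in B6 hearts. It rose by 1.34 ± 0.25 against untreated apoE-deficient hearts (adjusted p = 0.00587) and by 1.06 ± 0.25 against B6 hearts (adjusted p = 0.0214). The first call was lost without treated replicate 1 (1.28, adjusted p = 0.0532), and the second without treated replicate 1 (1.01), treated replicate 2 (1.07) or B6 replicate 2 (0.76). Prep, a peptidase of short proline peptides, gave -0.30 ± 0.08 against untreated apoE-deficient hearts (adjusted p = 0.0250) and lost that call with array medians centred (-0.17), with trimmed means (-0.24), with spike-in controls (-0.06) and without the intensity trend (adjusted p = 0.103), and its sign turned with medians centred after the pseudocount (0.08). It was also lost when treated replicate 1 (-0.33), treated replicate 2 (-0.28) or untreated apoE-deficient replicate 1 (-0.26) was left out. Atp6ap2, the renin receptor, was the other gene to rise against B6 hearts (0.43 ± 0.10, adjusted p = 0.0202), a call lost without treated replicate 1 (0.39), B6 replicate 1 (0.40) or B6 replicate 2 (0.45). In untreated apoE-deficient against B6 hearts 0 of the 11 passed in limma, with 3 at an unadjusted p under 0.05. The angiotensin receptor genes Agtr1b and Agtr2 and Mas1, the receptor for angiotensin 1-7, were too dim to be tested.

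Of 8 tested further bradykinin genes only Serping1 passed, the inhibitor of C1 esterase and of the kallikrein that releases bradykinin. Serping1 had 3409 and 3526 in treated, 2360.0 and 2434 in untreated apoE-deficient, and 2657 and 2704 in B6 hearts, with the treated arrays highest. It rose by 0.53 ± 0.04 against untreated apoE-deficient hearts (adjusted p = 7.35e-05) and by 0.37 ± 0.04 against B6 hearts (adjusted p = 0.000658). In untreated apoE-deficient against B6 hearts 0 of the 8 passed in limma, with 3 at an unadjusted p under 0.05. Dpp4, a peptidase, had a difference of -0.95 there that did not pass. Kng1 for the precursor of bradykinin and Bdkrb1 for the other bradykinin receptor were too dim to be tested. Of 4 tested further endothelin genes 0 passed in any of the 3 comparisons in limma, with 1, 0 and 0 at an unadjusted p under 0.05 in treated against untreated apoE-deficient, untreated apoE-deficient against B6 and treated against B6 hearts in turn. Ece1, the enzyme that forms endothelin 1 from its precursor, had 652 and 609.7 in treated, 599.7 and 787 in untreated apoE-deficient, and 668 and 539.5 in B6 hearts, and the groups overlapped.

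Of 11 tested genes of aldosterone synthesis and mineralocorticoid action 2 rose and 2 fell in treated against untreated apoE-deficient hearts. Nr3c1, the glucocorticoid receptor and closest relative of Nr3c2, had 992 and 905 in treated, 573 and 576 in untreated apoE-deficient, and 710.3 and 623 in B6 hearts. It rose by 0.71 ± 0.08 (adjusted p = 0.000512), while Nr3c2 gave -0.40 in the same comparison. Sgk1, a kinase induced by both steroid receptors, had 2000 and 1934 in treated, 1228 and 1262 in untreated apoE-deficient, and 1290 and 1230 in B6 hearts, and rose by 0.66 ± 0.05 (adjusted p = 7.44e-05). Tsc22d3 and Fkbp5, which are induced by glucocorticoids, gave -0.48 ± 0.05 (adjusted p = 0.000309) and -0.54 ± 0.09 (adjusted p = 0.00385) there. Induced genes of these receptors therefore stood in both directions. Against B6 hearts Nr3c1, Sgk1 and the sodium channel subunit Scnn1a were higher in treated hearts (0.50 ± 0.08, 0.64 ± 0.05 and 1.40 ± 0.33) and Tsc22d3 lower (-0.41 ± 0.05). That call of Tsc22d3 was lost with spike-in scaling (-0.12, adjusted p = 0.168), with medians centred after the pseudocount (-0.25, adjusted p = 0.0509) and without the intensity trend (adjusted p = 0.0856). Scnn1a was dim, at 64.2 and 70.0 in treated, 46.5 and 37.8 in untreated apoE-deficient, and 26.7 and 12.2 in B6 hearts, and lost its call without treated replicate 1 (1.36), treated replicate 2 (1.31) or B6 replicate 2 (1.06). In untreated apoE-deficient against B6 hearts Fkbp5 was the 1 gene of this list to pass (0.66 ± 0.09, adjusted p = 0.00493).

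Angiotensin type 1, bradykinin and endothelin receptors all signal through Gq proteins. A list around that signalling had 20 tested genes, and also holds Gna12 and Gna13 of other G proteins and the downstream Nos3. In treated against untreated apoE-deficient hearts 2 rose and 7 fell, Gna12 among the latter (-0.36 ± 0.09). In untreated apoE-deficient against B6 hearts 2 rose and 1 fell, and in treated against B6 hearts 3 rose and 5 fell. The shares over all tested genes were 11.4% higher and 12.3% lower in the first comparison, 3.85% and 4.66% in the second, and 8.78% and 9.87% in the third. Rgs4, which speeds the return of Gq proteins to the inactive state, had 135 and 163 in treated, 301 and 342 in untreated apoE-deficient, and 293 and 297 in B6 hearts. It fell by 1.06 ± 0.13 on the log2 scale against untreated apoE-deficient hearts (adjusted p = 0.000556) and by 0.94 ± 0.13 against B6 hearts (adjusted p = 0.00130). The relatives Rgs5 and Rgs2 were also lower in treated than in B6 hearts (-0.30 ± 0.03 and -0.57 ± 0.08), the second not so with spike-in scaling (-0.24, adjusted p = 0.0701) or with medians centred after the pseudocount (-0.37, adjusted p = 0.0536). Rgs5 is also a pericyte gene. The kinase Prkca, activated downstream of Gq, and Nos3, the endothelial nitric oxide synthase that Ednrb signalling activates, gave -0.64 ± 0.12 and -0.48 ± 0.07 in treated against untreated apoE-deficient hearts (adjusted p = 0.00620 and 0.00218). The call of Prkca was lost with spike-in scaling (-0.36), and centring medians after the pseudocount ended the calls of both (-0.24 and -0.12) and those of Tsc22d3 (-0.21) and Fkbp5 (-0.15). Nos3 had 553 and 507 in treated, 737 and 746 in untreated apoE-deficient, and 638 and 643 in B6 hearts. Grk5, a kinase that switches off activated receptors, had 697 and 685 in treated, 568 and 522 in untreated apoE-deficient, and 436 and 399 in B6 hearts, and was higher than in B6 hearts by 0.71 ± 0.08 in treated hearts (adjusted p = 0.000612) and by 0.38 ± 0.08 in untreated apoE-deficient hearts (adjusted p = 0.0312). The second of these calls was lost with array medians centred before (0.28) or after (0.21) the pseudocount, and without untreated apoE-deficient replicate 1 (0.31), untreated apoE-deficient replicate 2 (0.43), B6 replicate 1 (0.43) or B6 replicate 2 (0.31). Among these lists many calls depended on the intensity trend in the variance model. Without it the calls of Prkca (adjusted p = 0.0622), Nos3 (adjusted p = 0.0546), Fkbp5 (adjusted p = 0.0565) and Rgs5 (adjusted p = 0.180) in treated against untreated apoE-deficient hearts were lost. In treated against B6 hearts the calls of Mme (adjusted p = 0.0944), Atp6ap2 (adjusted p = 0.177), Serping1 (adjusted p = 0.0963), Nr3c1 (adjusted p = 0.0932), Scnn1a (adjusted p = 0.0760), Rgs2 (adjusted p = 0.0672) and Rgs5 (adjusted p = 0.127) were lost without it. So were those of Fkbp5 (adjusted p = 0.0998) and Grk5 (adjusted p = 0.166) in untreated apoE-deficient against B6 hearts. The call of Scnn1a was lost also without the filter on dim probe sets (adjusted p = 0.0574).

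**Figure D4:**
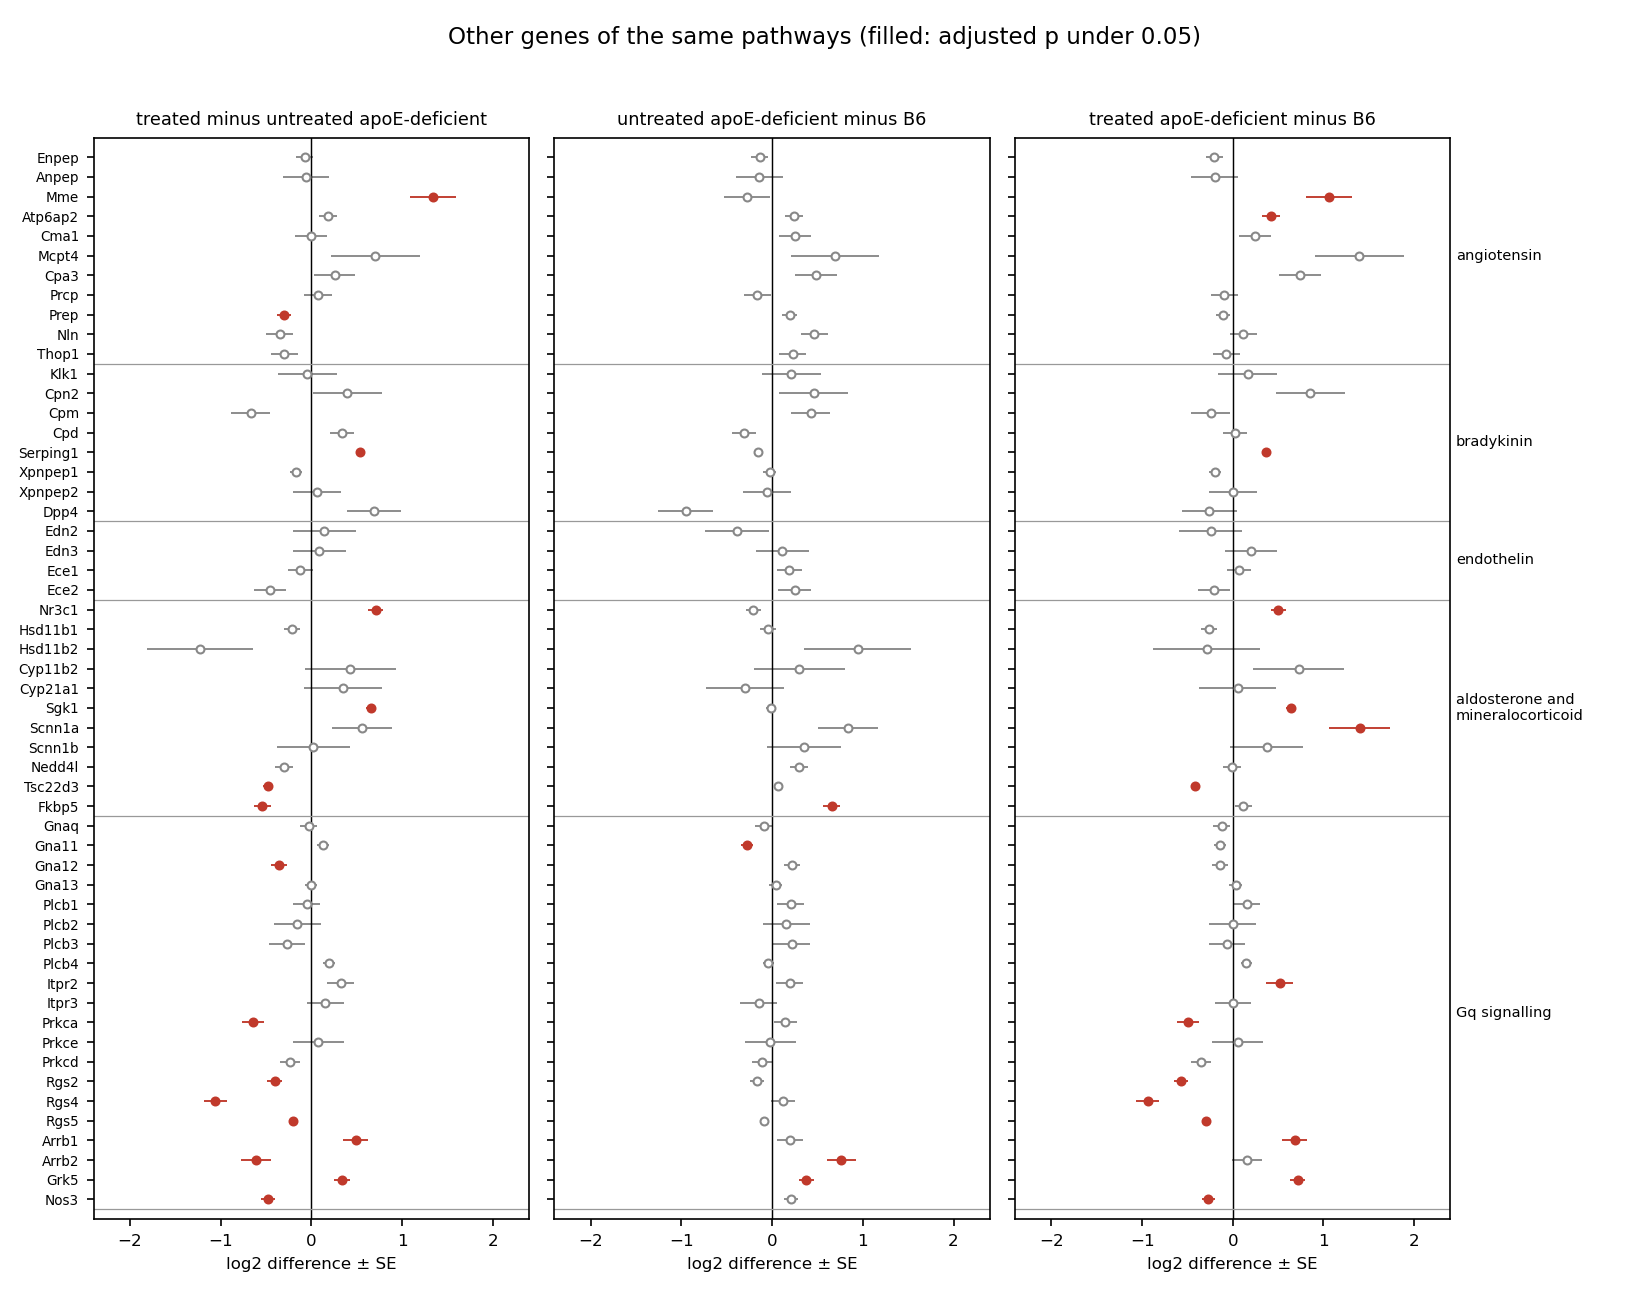
Log2 difference (horizontal axis) ± SE of the tested genes of 5 lists around the members, in the 3 comparisons, with filled red points at an adjusted p under 0.05. Mme (1.34) and Serping1 (0.53) lie right of 0 and Rgs4 (-1.06) left of 0 in the left panel, and the endothelin rows hold no filled point in any panel.

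For each member that passed somewhere, the genes with the most similar course over the 6 arrays were found by the root mean square difference of log2 levels centred on each gene's mean, among 13235 other genes. Nearest to Ednrb were Cidea, a lipid droplet protein of brown fat, at 0.0882, and Cyp4b1, a cytochrome P450 abundant in lung, at 0.110. Cidea had 4240 and 4326 in treated, 1037 and 999 in untreated apoE-deficient, and 977 and 979 in B6 hearts. Nearest to Agtr1a were Cad at 0.0146 and Phlpp1 at 0.0168, nearest to the passing Ace probe set Mst1r at 0.0669 and Znfx1 at 0.0725, and nearest to Agt Igf2bp1 at 0.185 and Ercc2 at 0.276. With 6 arrays in 3 groups, many genes share such a course.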

How the data were processed

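Per the labels' protocols, biotinylated cRNA was prepared from total heart RNA and hybridised to Affymetrix arrays. The deposited values are linear signal intensities, 1 for every probe set on every array. GCOS is named in the submitters' processing notes; how it corrected background or scaled arrays, and in which version, is not given in the sources used here. After 64 of 45101 probe sets, the controls, were set aside, the intensities were quantile-normalized, 11.1 (their 25th percentile) was added and log2 was taken. A probe set entered the test if its mean log2 value exceeded 4.99, the 40th percentile, which kept 27022. These went into limma (version 3.58.1, under R 4.3.3; lmFit followed by eBayes, trend switched on for intensity) as 1 model of 3 groups with 3 residual and 5.97 prior degrees of freedom. The fit was also tried on simulated data drawn from its own variances, with few changed probe sets and equal array brightness. Such data cannot test the scaling or the variance model. The members, the lists and the processing were chosen with earlier results of these data known. Symbols come from the array annotation, updated by gene number through a RefSeq table. Of the probe sets that are not controls, 34945 had 1 symbol, 932 several and 9160 none.

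Alternatives were 5 other scalings, pseudocounts of 1 and 50, no filter, no intensity trend, the replicate number as a block and leaving out each array. The planned setting that centres array medians was first computed with the pseudocount added before centring. After its values had been seen, it was changed to centre first and add the pseudocount afterwards. The first version is kept as an added alternative, and both are reported. Named genes were all members, up to 4 passing genes per list and comparison with the smallest p, and the 2 genes nearest to a member in course. Of these the text leaves out Gna11 and Arrb2. Dpp4, Ece1, Gna12, Gna13, the single cell type markers and the untested genes were picked after their values were seen. Across probe sets the 2 arrays of a group had r = 0.981 for treated, 0.960 for untreated apoE-deficient and 0.970 for B6 hearts, and 2 arrays per group limit the precision.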

Additional observations from a re-analysis of the deposited data

How the results depend on the processing

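Member counts rest on 11 probe sets. Over 17 alternatives in 3 comparisons, 37 counts stayed within 1.5 times the reported one and 14 did not. With unscaled signals, where treated arrays are brightest by construction, 11 member probe sets passed for treated against untreated apoE-deficient hearts, 1 for untreated apoE-deficient against B6 hearts and 8 for treated against B6 hearts. Spike-in scaling gave 5 and medians centred after the pseudocount gave 6 for treated against B6 hearts, and without the intensity trend 0 passed for untreated apoE-deficient against B6 hearts in limma, beside 4 at an unadjusted p under 0.05 in the reported fit. Leaving out 1 array gave 1 to 3, 0 to 3 and 3 to 5 passing in the 3 comparisons in turn. Arrays with the same replicate number did not deviate together (correlations of -0.0063, 0.033 and 0.020), and the fit with the replicate block gave 3, 2 and 4 passing, which added the call of 1 Ace probe set. Over all tested probe sets the reported fit gave 2703 higher and 2652 lower, 856 and 1053, and 2017 and 2049 in the 3 comparisons in turn. Without the trend these were 1058 and 595, 6 and 4, and 440 and 186. Without the filter the second comparison gave 603 and 714. Spike-in scaling gave 5568 and 1425, 2465 and 580, and 7040 and 574. Centred medians gave 3741 and 2038, 601 and 1739, and 1858 and 2197, and centred after the pseudocount 7222 and 895, 365 and 2123, and 3278 and 1004. Unscaled signals gave 22732 and 23, 73 and 1475, and 18703 and 55.

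Without the intensity trend 13 of the 34 calls of single members and named genes were kept. Of 52 turned signs, 24 came with unscaled signals. For treated against untreated apoE-deficient hearts unscaled signals gave Ace 0.94 and 1.21, Agtr1a 1.04, Agtrap 0.94, Edn1 0.98, Nr3c2 0.88, Prep 0.96, Tsc22d3 0.67, Fkbp5 0.73, Prkca 0.64, Rgs4 0.22, Rgs5 0.63 and Nos3 0.77. For treated against B6 hearts they gave Agtr1a 0.44, Agtrap 0.65, Edn1 0.60, Nr3c2 0.81, Tsc22d3 0.45, Rgs2 0.33 and Rgs5 0.31, and for untreated apoE-deficient against B6 hearts Agtrap -0.29, Nr3c2 -0.075 and Ednrb -0.048 and -0.29. With spike-in scaling Ace 1451911_a_at turned to 0.18, Agtr1a to 0.0056 and Edn1 to 0.063 (treated against untreated apoE-deficient), Edn1 to 0.017 (untreated apoE-deficient against B6), and Agtrap to 0.098, Edn1 to 0.080 and Nr3c2 to 0.26 (treated against B6). With array medians centred the same Ace probe set turned to 0.081, Agtrap to -0.045 and Ednrb 1437347_at to -0.036 (the last 2 for untreated apoE-deficient against B6), and with trimmed-mean scaling Ace to 0.0097. Medians centred after the pseudocount turned more of them: Ace to 0.060 and 0.33, Agtr1a to 0.16, Edn1 to 0.097, Agtrap to 0.057 and Prep to 0.077 (treated against untreated apoE-deficient), Ednrb to -0.10 and Agtrap to -0.11 (untreated apoE-deficient against B6), and Nr3c2 to 0.11 (treated against B6). Without 1 array, Ace ranged from -0.29 to 0.19 and Edn1 from -0.48 to 0.056 (treated against untreated apoE-deficient), and for treated against B6 hearts Nr3c2 from -0.22 to 0.049, Edn1 from -0.52 to 0.0051 and Agtrap from -0.067 to 0.080. The dimmest Ednrb probe set ranged from -0.76 to 0.36 for untreated apoE-deficient against B6 hearts. None of these values had passed in the reported fit except those of Agtr1a for treated against B6 hearts, Prep, Tsc22d3, Fkbp5, Prkca, Rgs2, Rgs4, Rgs5 and Nos3. The cause of the other changes was not tested.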
